A study of Mus musculus with 13 samples.

Results

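The NRF2 and antioxidant defense genes are 41 genes, taken as a fixed list of symbols and matched to gene identifiers through the mouse GRCm39 annotation, out of 57010 genes in the files. The list holds NRF2 itself and its partners, the enzymes that make and recycle glutathione and thioredoxin, the peroxide and superoxide scavengers, glutathione transferases, ferritin, and the enzymes that supply NADPH. All 41 were found, and all 41 passed the filter on low counts, together with 15034 genes in total. The rule that picks them uses symbols and no measured value, but the list was chosen with earlier results of these data known.

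RNA-Seq was carried out on mouse embryonic fibroblasts (MEFs), primary fibroblasts grown from wild-type embryos and kept at 3% oxygen. The 4 groups were untreated non-senescent MEFs (control), untreated MEFs made senescent with etoposide (senescent), and etoposide-senescent MEFs given Fucoidan-FV at 100 µg/mL (FV100) or at 300 µg/mL (FV300) for 12 h. Etoposide, a topoisomerase poison that breaks DNA, was given at 2 µM for 24 h, and 5 days in normal medium followed. Fucoidan-FV is the fucoidan, a sulfated sugar polymer, of the seaweed Fucus vesiculosus. Each group holds cells labelled as mouse 4, 5 and 6, so n = 3 throughout. Control mouse 5 has 2 libraries, 5(1) and 5(2), whose counts were summed, and the 13 libraries held 22782505 to 31278741 counts each. These are whole cultures, so fewer cells of a type and less RNA per cell cannot be told apart.

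NRF2, encoded by Nfe2l2, is a transcription factor that switches on antioxidant genes. In resting cells KEAP1 holds it and marks it for destruction. Oxidants and electrophiles modify KEAP1, after which NRF2 builds up, pairs with a small MAF protein and binds antioxidant response elements in its target promoters. Much of this control acts on the protein, so target mRNAs are commonly read in place of the Nfe2l2 mRNA. Senescent fibroblasts are known to hold more reactive oxygen species than dividing ones.

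The core of that element was searched in the promoters because NRF2 acts through it. The motif was TGACNNNGC on either strand, in the 300 bases from 250 before to 50 after the start of the GENCODE canonical transcript (GRCm39). It was present in 7 of 41 member promoters (17.1%) and in 12.5% of 21770 protein-coding promoters of the same length. The 7 members were Sqstm1, with 2 matches, Gclm, Txnrd1, Srxn1, Prdx1, Prdx6 and Sod1. Of the 16 members that passed the test in one of the main comparisons, 4 had a match. All 4 fell at FV100 from counts, and so did Gss, Taldo1, Tkt, Ftl1 and Gpx4, which had none. The 4 are printed 5′ to 3′ on the gene's own strand, with the match in capitals.
Txnrd1, chr10:82694763-82695062, plus strand: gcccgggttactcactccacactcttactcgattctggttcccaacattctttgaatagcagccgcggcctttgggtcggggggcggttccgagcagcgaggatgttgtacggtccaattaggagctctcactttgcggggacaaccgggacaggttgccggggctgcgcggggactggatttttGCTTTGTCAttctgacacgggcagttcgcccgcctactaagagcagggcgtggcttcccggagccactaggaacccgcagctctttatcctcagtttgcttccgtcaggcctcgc
Prdx1, chr4:116542491-116542790, plus strand: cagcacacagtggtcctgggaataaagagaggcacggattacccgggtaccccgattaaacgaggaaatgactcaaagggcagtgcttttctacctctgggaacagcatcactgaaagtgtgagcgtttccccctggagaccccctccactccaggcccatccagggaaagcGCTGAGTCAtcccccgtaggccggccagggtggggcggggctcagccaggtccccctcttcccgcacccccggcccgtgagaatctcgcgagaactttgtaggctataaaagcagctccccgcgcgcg
Prdx6, chr1:161079049-161079348, minus strand: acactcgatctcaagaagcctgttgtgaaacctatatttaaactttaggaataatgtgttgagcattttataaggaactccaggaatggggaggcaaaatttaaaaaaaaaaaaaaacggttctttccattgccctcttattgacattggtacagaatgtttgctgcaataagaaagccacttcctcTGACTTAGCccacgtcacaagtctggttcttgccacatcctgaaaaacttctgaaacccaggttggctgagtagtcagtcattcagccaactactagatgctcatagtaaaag
Sqstm1, chr11:50102836-50103135, minus strand: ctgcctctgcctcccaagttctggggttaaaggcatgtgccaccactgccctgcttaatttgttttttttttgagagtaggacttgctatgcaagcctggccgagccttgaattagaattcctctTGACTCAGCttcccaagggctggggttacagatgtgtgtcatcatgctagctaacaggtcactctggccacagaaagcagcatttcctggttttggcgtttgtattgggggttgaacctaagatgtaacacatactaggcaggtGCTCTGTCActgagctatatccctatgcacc
The match lay 65 bases before the start in Txnrd1, 78 before it in Prdx1 and 63 before it in Prdx6. The windows of Txnrd1, Prdx1 and Sqstm1 sit inside their gene models (chr10:82669785-82733546, chr4:116532123-116558398 and chr11:50089572-50107684), because the canonical transcripts start there. A match describes letters in a window and nothing about binding in these cells. A window without a match says nothing about elements outside those 300 bases, which were not searched.

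The labels were checked first. Cdkn1a, which encodes the cell cycle inhibitor p21, was higher in senescent than in control MEFs by 1.82 on the log2 scale (adjusted p = 6.8e-05), and Cdkn2a by 2.46 (adjusted p = 7.24e-05). The proliferation marker Mki67 was lower, at -4.57 (adjusted p = 0.000866), and so was the nuclear lamina gene Lmnb1, at -4.00 (adjusted p = 0.000408). Of 12 fibroblast markers all 12 passed the count filter, with a summed level of 32300 to 54400 CPM over the samples, where CPM are counts scaled to the library's TMM-adjusted total. Fn1 was the largest part, at group means of 25300 to 34500 CPM, and Dcn and Lum had means of 1.06 and 0.061 CPM in control. From senescent to FV100, Col3a1, Dcn and Lum rose by 1.38, 2.33 and 3.29 (adjusted p = 0.0164, 0.0477 and 0.0399), and Vim fell by -0.87 (adjusted p = 0.0245). Summed over their lists, 11 macrophage markers reached 3.55 to 17.7 CPM, 6 epithelial markers at most 2.04 CPM and 5 adipocyte markers at most 3.07 CPM, while 5 of 10 erythroid markers were at 0 in every sample. The sums of 2 lists did not overlap between untreated and treated samples. The 6 endothelial markers summed to 1.32 to 2.21 CPM in control and 1.47 to 3.3 in senescent MEFs, against 5.95 to 11.7 at FV100 and 5.23 to 8.36 at FV300, where the treated sums were mostly Tek (log2 fold change against senescent 3.58 at FV100, adjusted p = 0.0446, and 3.32 at FV300, adjusted p = 0.0818), with Cdh5 and Pecam1 at means under 1 CPM. The 6 skeletal muscle markers summed to 81.7 to 121 CPM in control, 74.7 to 93.3 in senescent, 14 to 51.9 at FV100 and 18.2 to 43.4 at FV300, nearly all of it Acta1 (log2 fold change against senescent -1.07 at FV100, adjusted p = 0.171, and -1.41 at FV300, adjusted p = 0.113), with Myod1 and Myog at or near 0. Their part in the members' results was not tested.

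Properties of 2 kinds moved with the libraries and touch these members. The first was sequence found in a single annotated transcript. In the 418 genes with over 95% of such sequence, the median log2 deviation of a library from the mean of all libraries ran from -1.65 (control mouse 6) to 1.3 (FV100 mouse 5), against -0.131 to 0.126 in the 8020 genes with at most 50%. Between libraries 5(1) and 5(2) of the same control mouse, the 8 members with over 80% of it differed by a median log2 ratio of 1.62 (0.66 to 2.46), and the 24 members under 50% by -0.03 (-0.93 to 2.80). The 8 are Nfe2l2, Nqo1, Txn1, Srxn1, Prdx3, Mgst3, Sod1 and Sod3. Gpx7, at 43.5% of single-transcript sequence, was the member with the widest gap, 4.46 against 34.0 CPM. A later fit leaves out 4 libraries low in single-transcript sequence. They are control mouse 6, library 5(1), senescent mouse 5 and FV300 mouse 4, at -1.65, -1.33, -1.14 and -1.27 in the 418 genes. That fit also has fewer samples in control, senescent and FV300, while FV100 keeps all 3.

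**Figure D1:**
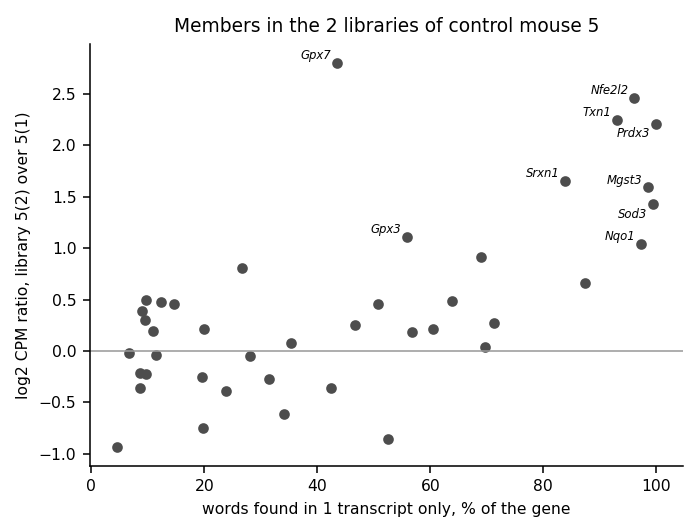
Each point is 1 of the 41 members; the x axis gives the percent of its 31-base words found in 1 annotated transcript only, and the y axis the log2 ratio of its CPM in library 5(2) to that in library 5(1), both from control mouse 5. Members over 80% sit between 0.66 and 2.46, and those under 50% have a median of -0.03 with Gpx7 at 2.80.

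The second was length. From senescent to FV100, the median log2 fold change was -0.47 over the 1893 tested genes with an effective length of up to 750 bases, -0.15 from 750 to 1500, 0.02 from 1500 to 3000, and 0.25 above 3000 bases. At FV300 the medians were -0.47, -0.18, 0.05 and 0.26 in the same classes, and from control to senescent they were 0.15, 0.11, 0.08 and -0.01. The members are short, with a median effective length of 918 bases against 1914 for all genes tested, and 35 of the 41 are under the latter. Senescent mouse 6 stood furthest apart, with genes of up to 750 bases at a median deviation of 0.73 and genes over 3000 bases at -0.54. Results are therefore given from counts with TMM scaling and again with offsets per gene and library for single-transcript sequence, length and GC content ("with offsets"), and from TPM, the unit scaled by gene length. On TPM the median of all genes moved by 0.34 at FV100 and 0.26 at FV300 relative to senescent on the log2 scale, so TPM changes are to be read against those shifts.

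**Figure D2:**
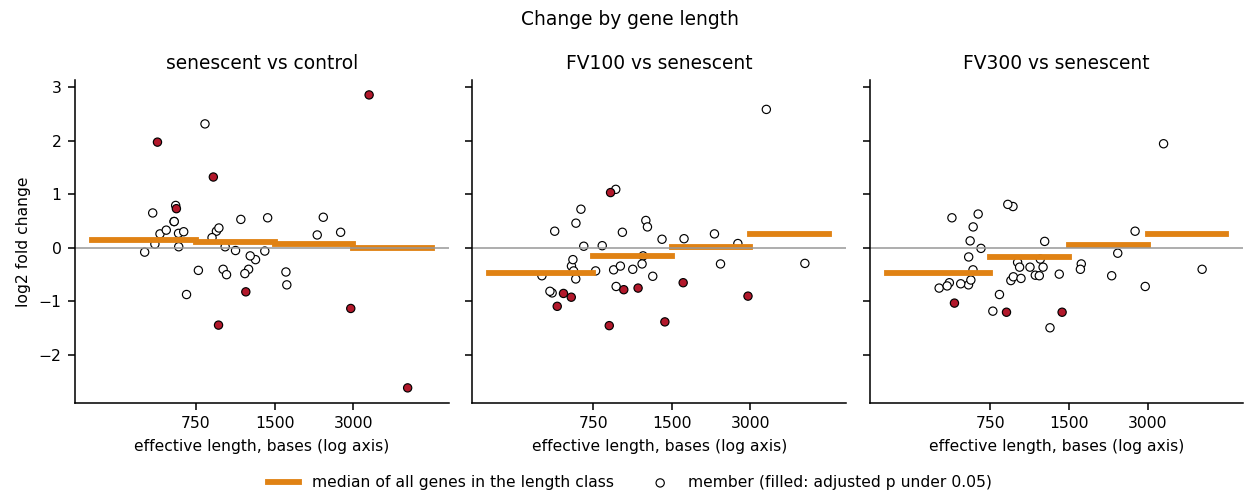
Log2 fold change (y axis) against effective length in bases (x axis, log scale) in the 3 main comparisons; points are the 41 members, filled where the adjusted p is under 0.05, and orange bars are the medians of all tested genes in 4 length classes. In both Fucoidan-FV panels the bars climb from -0.47 in the shortest class to 0.25 and 0.26 in the longest, and most members lie in the 2 shorter classes.

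Levels of the members spanned several orders of magnitude. On the TPM scale, where levels of different genes can be compared, ferritin light chain Ftl1 led in control MEFs at 6920 ± 501 TPM (SD, n = 3), followed by ferritin heavy chain Fth1 at 1470 ± 53.8 and peroxiredoxin 1 at 1190 ± 33.5. Nfe2l2 was at 14.4 ± 9.1 TPM and Nqo1 at 10.8 ± 11, whose SD is as large as its mean. The extracellular superoxide dismutase Sod3 was last at 0.405 ± 0.431 TPM. Some neighbours in that order, such as Gpx1 at 429 ± 94.0 and Gstp1 at 420 ± 48.4, did not differ beyond their spread.

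**Figure D3:**
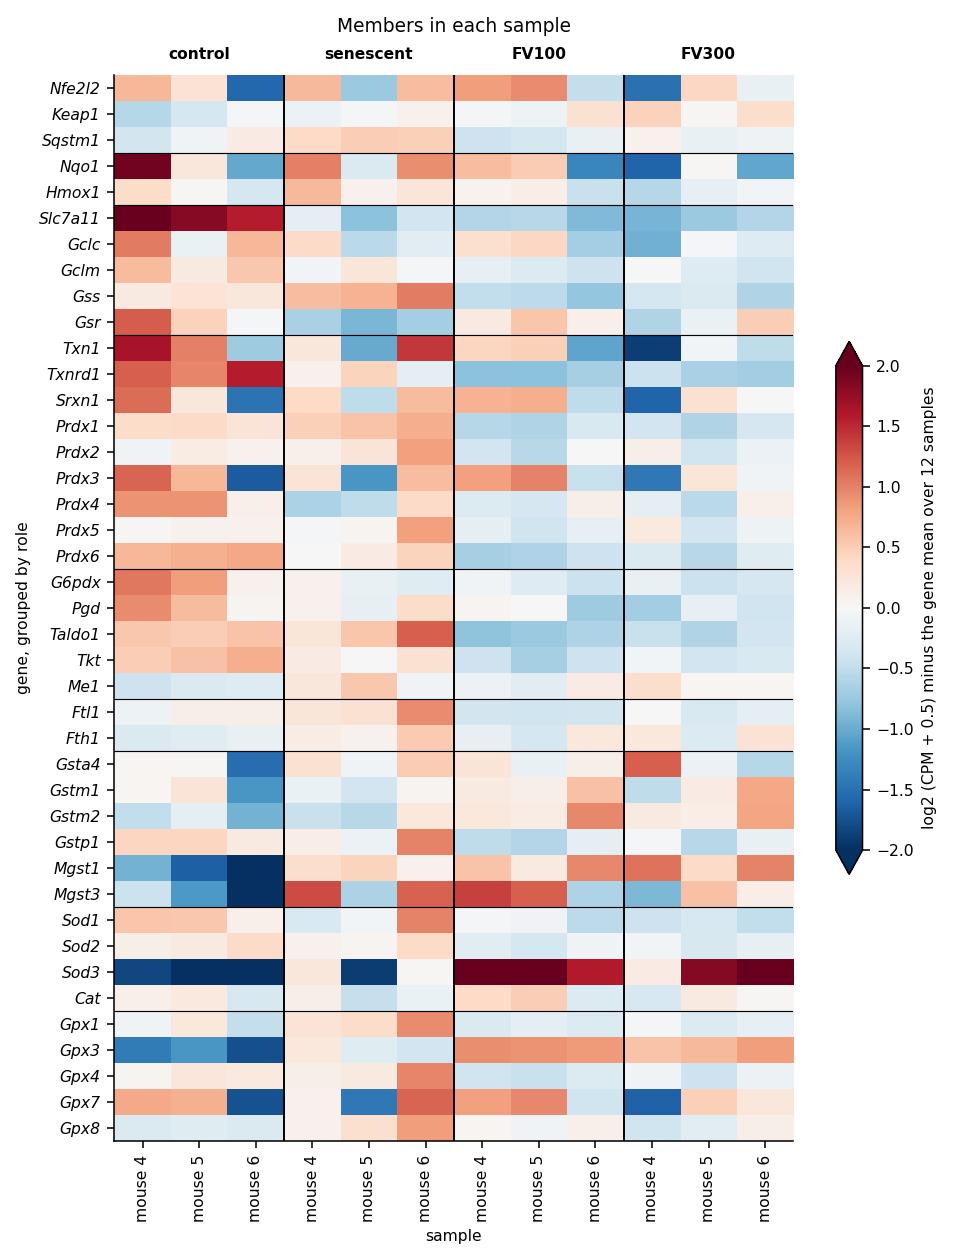
Log2 (CPM + 0.5) of each member minus its mean over the 12 samples, with genes grouped by role in rows and the mice of the 4 groups in columns; red is above and blue below the mean, and values beyond 2 take the end colours. Slc7a11 and Txnrd1 are highest in the 3 control samples, Gss and Prdx1 are lower in the 6 Fucoidan-FV samples than in the 6 others, and Gpx3 is lowest in control.

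The first comparison asked which antioxidant genes differed once the cells had become senescent. Senescent MEFs had far less Slc7a11, the cystine importer, and less of the reductases Gsr and Txnrd1 and of G6pdx, and more Mgst1, Sod3, Gpx3 and Gpx8. Of the 41 members, 4 rose and 4 fell at an adjusted p under 0.05 (edgeR's quasi-likelihood test with Benjamini-Hochberg adjustment over 15034 genes), or 9.76% in each direction, beside 6.11% of all genes called higher and 5.63% called lower. The median log2 fold change was 0.19 over the members and 0.07 over all genes. With the added requirement of a log2 fold change over 1 in size, 6 members were called, beside 8.42% of all genes.

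Among the genes of glutathione synthesis and reduction, 2 of 5 fell. Slc7a11, whose product brings in the cystine used to build glutathione, was at 15.9, 11.6 and 9.63 CPM in control mice 4, 5 and 6 and at 2.52, 1.42 and 2.11 in the senescent samples. The groups did not overlap, and it was the largest decrease among the members, at -2.61 ± 0.41 (log2 fold change ± SE, adjusted p = 0.00118), and -2.24 with offsets (adjusted p = 0.000848). Gsr, the reductase that regenerates glutathione, went from 31, 18.2 and 12.8 CPM to 8.18, 6.68 and 7.95, every senescent sample lying under every control sample. Its change was -1.44 ± 0.37 (adjusted p = 0.0221, 0.00327 with offsets), and the adjusted p was 0.119 without control mouse 4, 0.0627 without senescent mouse 4 and 0.0773 without senescent mouse 5. Gclc and Gclm, the subunits of the rate-limiting ligase, had values of -0.69 ± 0.41 and -0.40 ± 0.19 and did not pass the test (adjusted p = 0.323 and 0.214). Glutathione synthetase, Gss, was higher in all 3 mice, at 0.56 ± 0.17, with an adjusted p of 0.0518 from counts and 0.00809 with offsets.

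In the thioredoxin system 1 of 9 members fell. Txnrd1, the cytosolic reductase that recharges thioredoxin, was at 838, 720 and 1090 CPM in control mice 4, 5 and 6 and at 387, 499 and 322 in senescent ones. No samples of the groups overlapped, and the change was -1.13 ± 0.20 (adjusted p = 0.00275, 7.65e-05 with offsets, 0.0511 without the 4 libraries low in single-transcript sequence). Among the peroxiredoxins, which reduce peroxides, Prdx6 had -0.50 ± 0.17 and Prdx4 -0.87 ± 0.31 (adjusted p = 0.0688 and 0.0966 from counts, 0.00115 and 0.0128 with offsets). Prdx1, at 524, 530 and 483 CPM in control, had 0.26 ± 0.16 (adjusted p = 0.335). The 5 enzymes of NADPH supply held 1 call, G6pdx, which opens the pentose phosphate pathway and went from 75.6, 65.3 and 38.6 CPM to 38.6, 32.5 and 30.4. Control mouse 6 and senescent mouse 4 had the same value. The change of -0.82 ± 0.25 had an adjusted p of 0.0472, which rose to between 0.0657 and 0.193 when any of control mice 4 and 5 and the 3 senescent mice was left out. Tkt, at 393, 418 and 460 CPM in control and 312, 276 and 343 in senescent MEFs, had -0.45 ± 0.16 without overlap, with an adjusted p of 0.0938 from counts and 0.0157 with offsets. Me1 went the other way without overlap, from 224, 244 and 249 CPM to 349, 434 and 283. Its value was 0.57 ± 0.19 (adjusted p = 0.0648 from counts, 0.0012 with offsets). Pgd had -0.48 ± 0.26 (adjusted p = 0.286 from counts, 0.0449 with offsets), and Taldo1 had 0.19 ± 0.21 (adjusted p = 0.653).

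The other 4 called members rose. Mgst1, a membrane-bound glutathione transferase, was at 6.67, 3.93 and 2.02 CPM in control and 17.1, 18.3 and 14.1 in senescent MEFs. The change of 1.97 ± 0.40 (adjusted p = 0.00576, 0.00355 with offsets) held with every sample left out in turn. Gpx3, the secreted glutathione peroxidase, was at 26.5, 31.4 and 20.6 CPM in control and 81.8, 59.7 and 54.3 in senescent MEFs, without overlap, a change of 1.32 ± 0.21 (adjusted p = 0.0012, 0.00387 with offsets, 0.066 without the 4 libraries). Gpx8, a peroxidase of the endoplasmic reticulum, went from 64.0, 66.0 and 64.1 CPM to 83.2, 97.4 and 140, or 0.73 ± 0.21 (adjusted p = 0.0386, 0.0104 with offsets). Its highest value was in the senescent mouse 6 library, and without that library it was 0.49 (adjusted p = 0.0553). Leaving out control mouse 4, 5 or 6 gave adjusted p values of 0.0978, 0.0866 and 0.0683.

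Sod3, which clears superoxide outside the cell, had 2.38, 0.844 and 0.047 CPM in control mice 4, 5 and 6 and 11.4, 2.24 and 9.89 in senescent ones. The groups overlapped in 1 sample each. Its change of 2.85 ± 0.84 had an adjusted p of 0.0422, which became 0.0705 with the mouse number as a block and 0.000406 with offsets; 99.5% of its sequence is in a single transcript, and its lowest sample held 1 count. The call was also lost without control mouse 5 or 6 (adjusted p = 0.154 and 0.0897) and without senescent mouse 4 or 6 (0.138 and 0.0819).

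The best-known NRF2 markers did not pass the test in senescent MEFs. Nqo1, a quinone reductase used as a readout of NRF2, had 23.2, 6.75 and 2.54 CPM in control and 12, 4.57 and 11.3 in senescent samples, a value of -0.22 ± 0.76 (adjusted p = 0.904). The control spread alone covers every senescent value. Hmox1, the heme oxygenase, had 126, 98.9 and 76.5 CPM in control and 154, 104 and 116 in senescent samples, or 0.31 ± 0.24 (adjusted p = 0.471). Nfe2l2 was at 0.24 ± 0.60 and Keap1 at 0.29 ± 0.19 (adjusted p = 0.861 and 0.384). Sqstm1, whose product p62 binds KEAP1 and delivers it to autophagy, was higher in all 3 mice, 1060, 1140 and 1120 CPM against 625, 767 and 910, at 0.53 ± 0.17 with an adjusted p of 0.062 from counts and 0.0113 with offsets. Ferritin light and heavy chain, Ftl1 and Fth1, each had 0.49 ± 0.20 (adjusted p = 0.148 and 0.15 from counts, 0.0945 and 0.0314 with offsets, 0.0357 and 0.0211 on TPM). Gpx4 had 0.33 ± 0.22 (adjusted p = 0.391).

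**Figure D4:**
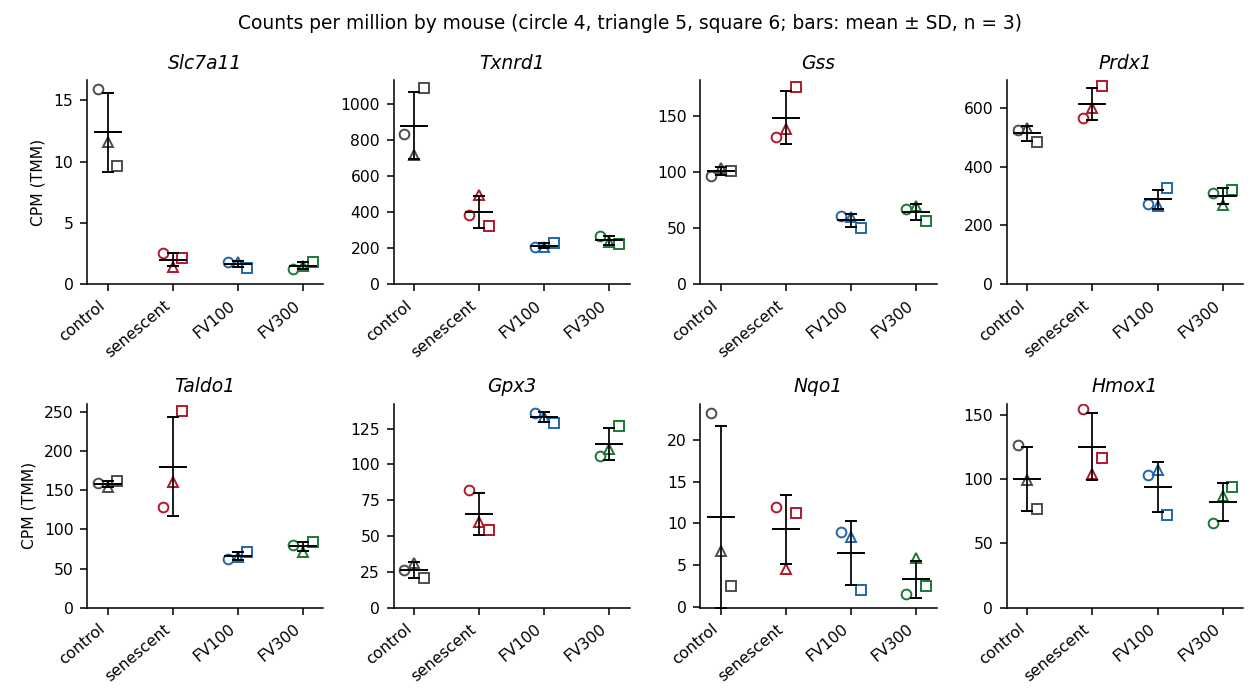
CPM with TMM scaling (y axis) of 8 members in control, senescent, FV100 and FV300 MEFs; circles, triangles and squares are mice 4, 5 and 6, and bars are the mean ± SD (n = 3). Slc7a11 drops from 9.63 or more in control to 2.52 or less elsewhere, Gss, Prdx1 and Taldo1 are lowest in the 6 Fucoidan-FV samples, Gpx3 is highest there, and Nqo1 and Hmox1 overlap among all groups except Hmox1 between senescent and FV300.

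The next comparison asked how 100 µg/mL Fucoidan-FV changed these genes in senescent MEFs. At FV100, Gss, Taldo1, Prdx1, Txnrd1 and Prdx6 were lower and Gpx3 higher, from counts and also with offsets. Ftl1, Sqstm1, Gpx4 and Tkt were lower from counts alone. In all, 1 member rose (2.44%) and 9 fell (22%), beside 1.14% of all genes called higher and 2.89% called lower. In the genes of up to 750 bases, 4.28% were called lower, and 3.72% in those from 750 to 1500. The members' median log2 fold change was -0.34, against -0.02 over all genes, and 4 members, beside 2.69% of all genes, also had a log2 fold change over 1 in size. With offsets, calls went to 4 members upward and 7 downward, and the median was -0.20 against 0.04 over all genes, and on TPM 4 were higher and 3 lower. The split of calls over all genes depended on the scaling too: 28.3% of 605 calls were higher with TMM, 42.9% of 417 with RLE factors, 44.5% of 1332 with DESeq2, 43.8% of 1204 with offsets, 40.3% of 682 with offsets for length alone, 45.8% of 786 with offsets for single-transcript sequence alone, and 72.0% of 429 on TPM.

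Taldo1, a transaldolase of the pentose phosphate pathway, showed the largest decrease among the members called from counts, whereas with offsets and without senescent mouse 6 Gss fell further. Taldo1 was at 129, 160 and 251 CPM in senescent mice 4, 5 and 6 and at 62.1, 65.1 and 71.1 at FV100. Every treated sample lay under every senescent sample and under every control sample (154 to 162 CPM). The change was -1.45 ± 0.22 (adjusted p = 0.00448), -0.98 without senescent mouse 6, -0.91 with offsets (adjusted p = 0.000671) and -0.96 on TPM (adjusted p = 0.00887). Of its sequence, 20% of the 31-base words also occur in other genes, mainly the pseudogene Gm17823, to which a mean of at most 0.0257 CPM was assigned in each group. Transketolase, Tkt, was at -0.65 ± 0.16 (adjusted p = 0.0428), which became 0.0535 with the mouse number as a block and 0.0864 with offsets, and rose to between 0.072 and 0.193 without any single mouse of either group. G6pdx, Pgd and Me1, the other NADPH-linked enzymes, had -0.15, -0.30 and -0.30 and did not pass the test.

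Gss, which joins glycine to make glutathione, was at 132, 139 and 176 CPM in senescent and 61.2, 59.8 and 50 at FV100. Its groups did not overlap, and the change was -1.38 ± 0.18 (adjusted p = 0.00182), -1.04 with offsets (adjusted p = 0.0015) and -0.89 on TPM (adjusted p = 0.025). It was at -1.08 without senescent mouse 6. The other glutathione genes did not pass from counts. Gsr was at 14.9, 19.5 and 14.1 CPM, above all 3 senescent samples (8.18, 6.68 and 7.95), and its value of 1.09 ± 0.36 had an adjusted p of 0.115 from counts, 0.0249 with offsets and 0.0449 on TPM. Slc7a11 stayed at 1.78, 1.82 and 1.35 CPM, a value of -0.29 ± 0.39 (adjusted p = 0.739), and Gclc and Gclm were at 0.17 and -0.34.

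In the thioredoxin system 3 of 9 members fell. Prdx1, the most abundant peroxiredoxin here, went from 567, 599 and 673 CPM to 274, 266 and 327, a change of -1.09 ± 0.16 (adjusted p = 0.00407). It kept its call with each sample left out in turn and was at -0.65 with offsets (adjusted p = 0.00735) and -0.74 on TPM (adjusted p = 0.0143). Txnrd1 went from 387, 499 and 322 CPM to 208, 208 and 230, further below control, by -0.90 ± 0.20 (adjusted p = 0.0265, 0.0533 with the block, 0.00161 with offsets, 0.33 on TPM). Prdx6, which also has phospholipase activity, went from 212, 237 and 290 CPM to 134, 138 and 159, by -0.78 ± 0.17 (adjusted p = 0.0229), with -0.40 left with offsets (adjusted p = 0.0166) and -0.25 on TPM (adjusted p = 0.175). The call of Txnrd1 was lost without senescent mouse 4 or 5 or any FV100 mouse (adjusted p = 0.0613 to 0.135), and that of Prdx6 without senescent mouse 5 or FV100 mouse 4 or 5 (0.0569 to 0.125). These 3 genes carry a printed motif, and so does Sqstm1, while Gss, Taldo1, Tkt, Ftl1 and Gpx4 have no match in their windows.

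Besides Tkt, 3 more decreases did not hold with offsets. Sqstm1 went from 1060, 1140 and 1120 CPM to 609, 634 and 727, or -0.75 ± 0.17 (adjusted p = 0.0299), and to -0.37 with offsets (adjusted p = 0.113). Ftl1, the light chain of the iron store, went from 4000, 4210 and 6530 CPM to 2620, 2560 and 2630, or -0.92 ± 0.20 (adjusted p = 0.0262). Its highest value was again in senescent mouse 6, and it was at -0.51 without that library (adjusted p = 0.0644) and -0.34 with offsets (adjusted p = 0.115). Gpx4, the peroxidase that reduces lipid peroxides and holds back ferroptosis, went from 287, 300 and 522 CPM to 200, 195 and 219, or -0.85 ± 0.22 (adjusted p = 0.0471), with 0.0597 under the block, -0.37 without senescent mouse 6 (adjusted p = 0.11) and -0.17 with offsets (adjusted p = 0.413). Both genes share much sequence with near-identical copies such as Ftl1-ps1 and Gpx4-ps2, 78.7% of words for Ftl1 and 69.3% for Gpx4, so their counts are uncertain. Summed with those partners the log2 ratios of the means were -0.92 and -0.85. Single mice decided these 3 calls: Sqstm1 had an adjusted p of 0.0622 to 0.149 without any senescent mouse or FV100 mouse 4 or 5, Ftl1 of 0.0511 to 0.113 without senescent mouse 5 or 6 or any FV100 mouse, and Gpx4 lost its call without any of the 6.

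Gpx3 was the single member that rose from counts. It was at 81.8, 59.7 and 54.3 CPM in senescent MEFs and at 136, 133 and 129 at FV100, with no overlap. Having risen with senescence, it rose again by 1.03 ± 0.20 (adjusted p = 0.0159, 0.0234 with offsets, 0.0145 on TPM), and the adjusted p was 0.0682 without FV100 mouse 4, 0.0646 without FV100 mouse 5 and 0.0683 without the 4 libraries low in single-transcript sequence. Sod3 was at 60.0, 51.6 and 30.3 CPM, above 11.4, 2.24 and 9.89, a value of 2.58 ± 0.79 with an adjusted p of 0.085 from counts, 0.0142 with offsets and 0.0361 on TPM. Gstm2, a cytosolic glutathione transferase, had 34.7, 33.0 and 58.3 CPM against 21.8, 20.2 and 34.6, with an adjusted p of 0.229 from counts and 0.00963 with offsets. Mgst1 and Gpx8, which had risen with senescence, had 0.31 ± 0.38 and -0.43 ± 0.21 at FV100 (adjusted p = 0.71 and 0.278). None of the 6 glutathione transferases and none of the 4 superoxide dismutases and catalase passed from counts.

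Nqo1 was at 9.02, 8.33 and 2.01 CPM at FV100, -0.53 ± 0.76 (adjusted p = 0.762 from counts, 0.061 with offsets and 0.026 with offsets and the block), and Hmox1 at 103, 107 and 71.6, -0.41 ± 0.24 (adjusted p = 0.375). Keap1 was at 0.08 ± 0.19 (adjusted p = 0.87). Nfe2l2 had 41.9, 45.4 and 16.7 CPM against 36.9, 13.8 and 36.2 and changed sign with the processing, from 0.26 ± 0.60 (adjusted p = 0.864) from counts to -0.53 with offsets (adjusted p = 0.048, 0.0571 with the block added). No direction is given for it.

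**Figure D5:**
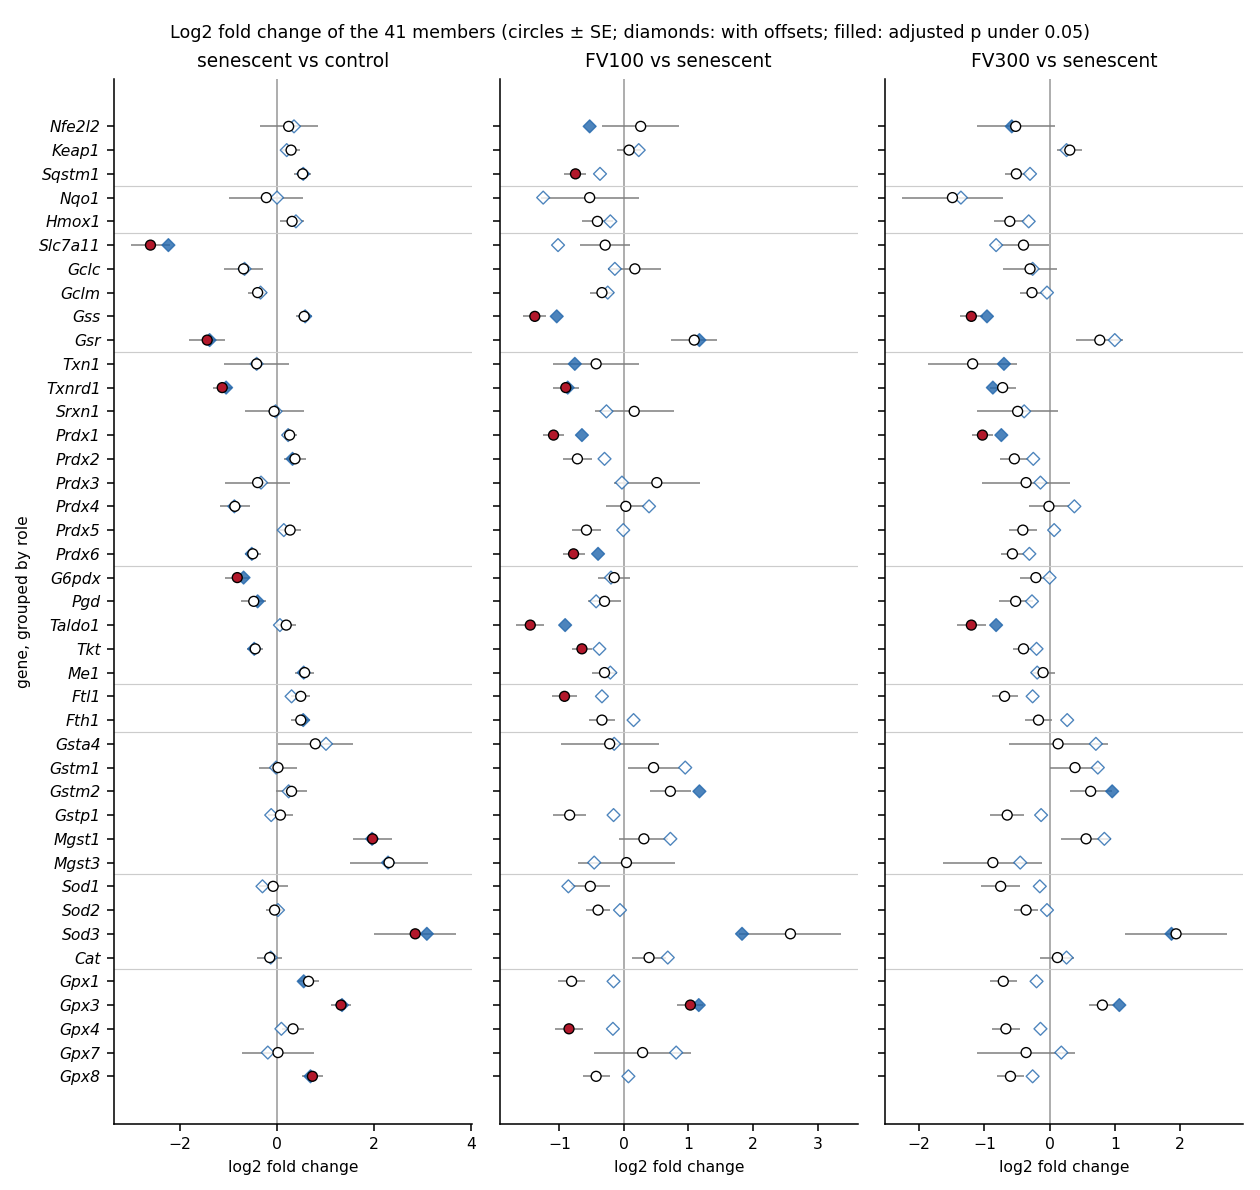
Log2 fold change (x axis) of the 41 members (rows, grouped by role) in the 3 main comparisons; circles with bars are the fit to counts ± SE, red where the adjusted p is under 0.05, and diamonds the fit with offsets for single-transcript sequence, length and GC content, solid blue where it is under 0.05. At both doses the diamonds of Taldo1, Prdx1 and Gss stay solid, and those of Ftl1 and Gpx4 lie nearer to 0 than their circles.

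The comparison at 300 µg/mL asked the same at the higher dose. Gss, Prdx1 and Taldo1 fell again, and no member rose from counts. That is 3 of 41 lower (7.32%), beside 1.12% of all genes called lower, 0.778% called higher and 1.64% called with a log2 fold change over 1 in size, which all 3 had. The members' median was -0.41, against 0.00 over all genes, and -0.19 with offsets, against 0.04. Of the 286 calls over all genes 40.9% were higher, and 74.4% of 390 on TPM. The adjusted p values of both doses rest on the same 3 senescent samples.

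Taldo1 was at 79.9, 71.7 and 83.5 CPM at FV300 and changed by -1.20 ± 0.22 (adjusted p = 0.014, 0.00102 with offsets, 0.0154 on TPM). Leaving out FV300 mouse 5 or 6 gave 0.0691 and 0.0687. Gss, at 67.1, 70.1 and 56.4 CPM, changed by -1.20 ± 0.18 (adjusted p = 0.00513, 0.00195 with offsets, 0.0293 on TPM). Prdx1, at 312, 268 and 320 CPM, changed by -1.03 ± 0.16 (adjusted p = 0.00684, 0.0039 with offsets, 0.02 on TPM). All 9 of these CPM values lay under every senescent and every control value of the same gene. Such gaps were not counted over all genes. Against senescent and without the 4 libraries low in single-transcript sequence, Prdx1 passed (adjusted p = 0.0458), and Gss and Taldo1 were at 0.0565 and 0.0774. Against control, Gss at FV300 had -0.64 ± 0.17 from counts (adjusted p = 0.0159) and -0.31 on TPM (adjusted p = 0.227). Without those libraries it had -0.43 against control (adjusted p = 0.259).

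Txnrd1 was at 271, 234 and 225 CPM, a value of -0.72 ± 0.20 with an adjusted p of 0.0882 from counts and 0.00158 with offsets. Gpx3 was at 106, 111 and 127 CPM, above every senescent sample, at 0.81 ± 0.20 with 0.063 from counts, 0.0358 with offsets and 0.0296 on TPM. Nqo1 was at 1.55, 5.83 and 2.53 CPM, -1.49 ± 0.78 (adjusted p = 0.399 from counts, 0.0532 with offsets and 0.0237 with offsets and the block), and Hmox1 at 65.5, 86.9 and 93.8, under all 3 senescent samples, -0.61 ± 0.24 (adjusted p = 0.239). Keap1 and Nfe2l2 had 0.31 ± 0.19 and -0.52 ± 0.60 (adjusted p = 0.505 and 0.76 from counts). Nfe2l2, at 7.95, 31.4 and 21.1 CPM, was at -0.58 with offsets (adjusted p = 0.0374, 0.0481 with the block added) and at -0.28 on TPM (adjusted p = 0.864). The members called in the other comparisons gave these values at FV300. Sqstm1 was at 855, 730 and 751 CPM, -0.51 ± 0.17 (adjusted p = 0.156), and Prdx6 at 174, 144 and 180, -0.57 ± 0.17 (adjusted p = 0.106 from counts, 0.0573 with offsets). Ftl1 was at 3390, 2740 and 3000 CPM, -0.69 ± 0.20 (adjusted p = 0.106), Gpx4 at 252, 198 and 245, -0.67 ± 0.22 (adjusted p = 0.141), and Tkt at 267, 213 and 226, -0.40 ± 0.16 (adjusted p = 0.247). All 15 of these values lay under every senescent value of the same gene. These genes are listed for their calls at FV100 against the same senescent samples, so the gap is no separate support. No share of such gaps over all genes is given here. Gsr was at 8.41, 11.9 and 18.5 CPM, 0.77 ± 0.36 (adjusted p = 0.339 from counts, 0.0507 with offsets), and Sod3 at 10.9, 35.8 and 44.2, 1.94 ± 0.78 (adjusted p = 0.242 from counts, 0.0148 with offsets, 0.124 on TPM). Mgst1, Gpx8, Slc7a11 and G6pdx had 0.56, -0.60, -0.40 and -0.21 (adjusted p = 0.541, 0.168, 0.71 and 0.768). The 38 members other than Gss, Prdx1 and Taldo1 did not pass from counts. Of the 41, 17 had an unadjusted p under 0.05, beside 2297 of all 15034 genes.

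The members not yet described stayed without a call from counts in all 3 comparisons. Among the peroxiredoxins, Prdx2 had 0.37, -0.72 and -0.54 (log2 fold changes for senescent against control, FV100 against senescent and FV300 against senescent), Prdx3 -0.40, 0.51 and -0.36, and Prdx5 0.27, -0.58 and -0.41. Thioredoxin itself, Txn1, had -0.42, -0.43 and -1.18, and with offsets its adjusted p was 0.0171 at FV100 and 0.0284 at FV300. Sulfiredoxin, Srxn1, which repairs over-oxidized peroxiredoxins, had -0.06, 0.16 and -0.49. Of the glutathione transferases, Gsta4, Gstm1 and Gstp1 had 0.79, 0.02 and 0.07 in senescence, and Gstp1 shares 50.5% of its words with other genes. Mgst3 had 2.31 ± 0.80 in senescence, with an adjusted p of 0.0818 from counts and 0.000951 with offsets. The superoxide dismutases of the cytosol and the mitochondrion, Sod1 and Sod2, had -0.08 and -0.05 in senescence, and catalase, Cat, had -0.15. Gpx1, the main cytosolic peroxidase, was nearest to a call, with 0.65 in senescence and -0.81 at FV100 (adjusted p = 0.0674 and 0.051). With offsets it was at 0.55 in senescence (adjusted p = 0.0148, 0.0172 on TPM) and at -0.16 at FV100 (adjusted p = 0.571). Gpx7 had 0.02, 0.29 and -0.36. Exons on the opposite strand cover 85.3% of Gpx1 and 85.0% of Gpx3, and whether the counting used strand is not given in the sources used here, so reads from those neighbours may be included.

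Between the doses no member passed the test. Over the 41 members the median log2 fold change of FV300 against FV100 was -0.04, all adjusted p values were at least 0.97 (edgeR), none had an unadjusted p under 0.05, and DESeq2 called 0 members too. Of all genes 0.00665% were called, which is 1 gene. The difference was 0.18 ± 0.17 for Gss, 0.06 ± 0.16 for Prdx1 and 0.25 ± 0.21 for Taldo1. With 3 mice a dose, these values do not show that the doses act alike.

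Set against non-senescent control MEFs, which share their samples with the comparisons already given, 5 members were higher and 11 lower at FV100 (12.2% and 26.8%), beside 12.2% of all genes higher and 14.4% lower. At FV300, 5 were higher and 10 lower (12.2% and 24.4%), beside 12.4% and 12%. Txnrd1 was at -2.03 ± 0.21 and -1.86 ± 0.21 at the lower and higher dose (adjusted p = 2.25e-05 and 4.92e-05), Slc7a11 at -2.91 ± 0.41 and -3.02 ± 0.42 (adjusted p = 0.000259 and 0.000221), and Gpx3 at 2.34 ± 0.21 and 2.12 ± 0.21 (adjusted p = 1.19e-05 and 2.22e-05). Relative to untreated senescent MEFs, Slc7a11 had values of -0.29 ± 0.39 and -0.40 at the lower and higher dose, with adjusted p values of 0.739 and 0.71. Keap1, the NRF2 inhibitor, was higher than control at FV300, at 0.60 ± 0.19 (adjusted p = 0.037, up to 0.125 with 1 mouse left out), and at 0.37 ± 0.19 at FV100 (adjusted p = 0.172 from counts, 0.0106 with offsets). Slc7a11, Txnrd1, Prdx1, Prdx6, Taldo1 and Tkt fell below control at both doses with an adjusted p under 0.05 that also held with offsets and on TPM. By the same measure Gpx3, Sod3, Mgst1 and Gstm2 rose above control at both doses. Sod3 was at 5.44 ± 0.92 and 4.80 ± 0.90 (adjusted p = 0.00087 and 0.00182), the largest changes of the members against control. Mgst1 was at 2.28 ± 0.40 and 2.53 ± 0.40 (adjusted p = 0.00107 and 0.000598), and Gstm2 at 1.01 ± 0.32 and 0.92 ± 0.32 (adjusted p = 0.0313 and 0.0495).

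A wider list of 151 other redox and NRF2-linked genes, of which 148 were in the annotation and 128 were tested, gives the surroundings. From control to senescent 6 rose and 11 fell, 13.3% of the 128 beside 11.7% of all genes, with a median of 0.19. Aldh1l2, Slc7a5 and Idh2 fell most, by -2.41 ± 0.31, -2.33 ± 0.54 and -2.20 ± 0.29 (adjusted p = 0.000328, 0.0139 and 0.000382). The first and last make mitochondrial NADPH, and Slc7a5 is a neutral amino acid transporter. Gstm6, Ggt5 and Ephx1 rose most, by 4.02 ± 0.71, 3.06 ± 0.85 and 2.13 ± 0.18 (adjusted p = 0.00272, 0.0326 and 1.72e-05). Ephx1, the microsomal epoxide hydrolase, went from a mean of 106 to 465 CPM, whereas Gstm6 and Ggt5 had means of only 0.149 and 0.104 CPM in control.

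At FV100, 2 of the wider list rose and 7 fell, 7.03% of the 128 beside 4.02% of all genes, with a median of -0.13. Maff, a small MAF protein that pairs with NRF2, fell from a mean of 97.9 to 29.3 CPM, by -1.74 ± 0.21 (adjusted p = 0.00142). Esd and Gsto1 fell by -1.48 ± 0.19 and -1.28 ± 0.18 (adjusted p = 0.00232 and 0.00387). Selenop, a secreted selenoprotein, rose from a mean of 17.0 to 87.5 CPM, by 2.36 ± 0.42 (adjusted p = 0.00956), and Sesn3, a sestrin, by 1.46 ± 0.30 (adjusted p = 0.0185). At FV300, 3 rose and 3 fell, 4.69% beside 1.9% of all genes, with a median of -0.05. Maff, Esd and Gsto1 fell by -1.44, -1.27 and -1.01 (adjusted p = 0.00463, 0.00692 and 0.014), and Selenop, Oplah and Idh1 rose by 2.35, 1.40 and 0.94 (adjusted p = 0.014, 0.0305 and 0.0488). Over the alternatives the adjusted p ran up to 0.0278 for Maff at FV100 and 0.0479 at FV300, and up to 0.0384 for Selenop at FV100 and 0.0777 at FV300. The highest adjusted p over the alternatives was above 0.05, so the call was lost in at least 1 of them, for Slc7a5 (0.0771), Ggt5 (0.198), Gstm6 (0.0599), Sesn3 (0.205), Oplah (0.111), Idh1 (0.188), and at FV300 also for Esd (0.0577) and Gsto1 (0.106). With the mouse number as a block, Ggt5 had 0.0649 and Idh1 0.0944, and 11 genes of the list in place of 17 were called between senescent and control.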

How the data were processed

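RNA from 13 MEF libraries (TruSeq Stranded Total RNA, NovaSeq) was processed by the authors with FastQC 0.12.1, Trimmomatic, STAR 2.7.11b and RSEM 1.3.1 against GRCm39. The deposited values are RSEM expected counts and TPM per gene, and the TPM are scaled by the authors for length and depth. For the count tests each expected count was rounded to the nearest whole number, and the counts of libraries 5(1) and 5(2) were then added. R 4.3.3 with edgeR 4.0.16 was used: genes were kept by filterByExpr (minimum count 10, total 15), TMM factors were computed, and 1 quasi-likelihood fit over the 4 groups was tested with Benjamini-Hochberg adjustment over 15034 genes. A gene was called at an adjusted p under 0.05. CPM use TMM-scaled library sizes. Alternatives used DESeq2 1.42.0, RLE factors, other filters, the mouse number as a block, and 1 mouse left out in turn. Offsets for single-transcript sequence, length and GC content, limma 3.58.1 on log2 (TPM + 0.5), whose fold changes are on that scale, and the fit without the 4 libraries low in single-transcript sequence were added after seeing the data. Of these fits, only the main edgeR fit was tried on simulated counts, in the 3 main comparisons. Those counts held no library effect of length or single-transcript sequence, so they say nothing about the offsets or the other fits. Library totals of 22782505 to 31278741 limit the precision of low genes.

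Mouse numbers come from the labels, which do not say that a number marks 1 animal across groups. The study describes 3 independent biological replicates in each group, without saying what kept the cultures separate. The p-values measure the spread between these samples. The members and lists were chosen with earlier results of these data known. By the rule for named genes, values per mouse with full statistics go to members in the main comparison that called them and to Nfe2l2, Keap1, Nqo1 and Hmox1, with shorter statistics elsewhere, and at most 3 genes per direction are named from the wider list. Promoters were read from GRCm39 with GENCODE vM39 starts.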

Additional observations from a re-analysis of the deposited data

How the results depend on the processing

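Over 21 member calls and 461 alternatives of them, the direction was the same in every one, 342 stayed past the threshold and 119 did not. Members called between senescent and control numbered 8, and 16 with DESeq2, 4 with only the groups compared, 16 with offsets for single-transcript sequence (13 with the block), 19 with offsets for single-transcript sequence, length and GC content (18 with the block) and 15 with offsets for length. At FV100 the 10 calls became 6 with RLE factors, 2 with only the groups compared, 6 with library 5(2) alone, 4 without the libraries low in single-transcript sequence and 4 with a log2 fold change over 1. At FV300 the 3 calls became 8 with DESeq2, 5 with no filter, 8 with offsets for single-transcript sequence (8 with the block), 9 with all 3 offsets (9 with the block), 6 with offsets for length and 1 without the low libraries. Against control, a log2 fold change over 1 left 10 of 16 calls at FV100 and 9 of 15 at FV300, beside 2955 of 4006 and 2704 of 3675 over all genes. For the wider list, the 17 senescent calls became 30 with DESeq2, 7 with only the groups compared, 11 with the replicate block, 30 with offsets for single-transcript sequence, 39 with all 3 offsets (39 with the block) and 28 with offsets for length. Its 9 calls at FV100 became 17 with DESeq2, 4 with only the groups compared, 5 with library 5(2), 18 with all 3 offsets (19 with the block) and 4 without the low libraries, and its 6 at FV300 became 10 with DESeq2, 3 with only the groups compared, 13 with all 3 offsets (14 with the block), 10 with offsets for length and 3 without the low libraries. Leaving out 1 mouse gave 5 to 10, 3 to 6, 2 to 4, 0 to 0, 11 to 14 and 9 to 14 members for senescent against control, FV100 and FV300 against senescent, FV300 against FV100, and FV100 and FV300 against control, and 10 to 24, 4 to 8 and 1 to 6 of the wider list. Over all genes, leaving out 1 mouse of either group compared gave 1172 to 2684, 139 to 493 and 46 to 277 calls in the main comparisons. Against control it gave 2671 to 3616 at FV100 and 2542 to 3594 at FV300. Why these counts moved was not tested.

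Over all genes, the 1765, 605 and 286 calls of the main comparisons became 2663, 1332 and 935 with DESeq2, 765, 170 and 101 with only the groups compared, 3837, 1204 and 1005 with all 3 offsets, and 1156, 296 and 118 without the low libraries. They were 2754 and 637 for senescent and FV300 with offsets for single-transcript sequence, 2658 and 504 with offsets for length, 1144 and 782 at FV100 and FV300 with no filter, and 356 at FV100 with library 5(2). Over the 18 pairs of samples with the same mouse number, deviations from the group means had a median correlation of -0.0776 (-0.444 to 0.789), with 8 pairs over 0.1, so the data do not settle whether a number marks a shared animal. With the replicate block 7, 7 and 3 members were called in the main comparisons, beside 1522, 433 and 233 of all 15034 genes. The lowest genes, such as Sod3 with 1 count in a sample, are limited by depth.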
